A study of Drosophila melanogaster with 2 samples.

Results

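The genes described here are 8 regulators of the embryonic tracheal system of Drosophila melanogaster: trh, tgo, dysf, vvl, rib, esg, bnl and btl. They were taken by name from the 13968 protein-coding genes of the annotation, by a rule that uses no measured value. The choice was made with earlier results of these data known. A peak was given to a gene when its summit, the position of highest enrichment, lay within 1000 bp of a transcription start site (TSS), in an exon or intron of the gene, or within 10 kb outside it. Each summit counted once, in the first of these places that applied.

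Chromatin was prepared from whole embryos of both sexes, aged 0 to 24 h, of the fly strain nmo-GFP, which stably expresses the kinase Nemo with green fluorescent protein at its C-terminus. Protein and DNA were recovered with an antibody against GFP and sequenced (ChIP-seq). All samples belonged to 1 group, with 2 biological replicates numbered 2 and 3, and no untagged or input chromatin was analysed here. Whole embryos were pooled, so the cells in which a peak arose cannot be told apart, and cells of the trachea are only a part of the embryo. No marker of a cell type can be read from peak lists.

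The tracheal system is the network of epithelial tubes that carries air to the tissues of the fly. Trachealess (Trh), a transcription factor of the bHLH-PAS family, forms a dimer with its broadly expressed partner Tango (Tgo) and starts the tracheal programme together with the POU factor Ventral veins lacking (Vvl). Branches grow where cells carrying the FGF receptor Breathless (Btl) meet the FGF ligand Branchless (Bnl). Dysfusion (Dysf), also a bHLH-PAS protein, and the Snail family zinc finger Escargot (Esg) act in the cells that fuse neighbouring branches, and the BTB protein Ribbon (Rib) is needed for branch growth. Nemo, a proline-directed kinase related to the MAP kinases, is known from Wnt, BMP and planar polarity signalling.

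The deposited lists held 30000 peaks for each replicate and for the pool of both, and 9299 peaks that passed the authors' irreproducible discovery rate (IDR) threshold. Peaks have a signal value on the scale of the authors' peak caller, here used for ranks within a list, with rank 1 the strongest. The IDR list holds the 9299 strongest pooled peaks, with signal values from 166 to 7478 and a median of 333. A pooled peak under 166 was therefore outside the IDR list, and 46.2% of all pooled peaks had a q-value over 0.05. Read depth was unknown. With 1 group and 2 replicates no test between conditions is possible, so counts for the 8 genes are set beside the same counts over all protein-coding genes, with no p-value.

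At the 8 genes the IDR list held 31 summits: 5 within 1000 bp of a TSS, 10 in introns, 16 outside the genes and none in exons farther from a TSS. The bHLH-PAS genes trh and dysf had the strongest promoter summits, rib had its strong summits in its first intron, and the receptor gene btl had no pooled summit near either TSS. The pooled list added 70 weaker summits at these genes, of which 46 had a q-value over 0.05.

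**Figure D1:**
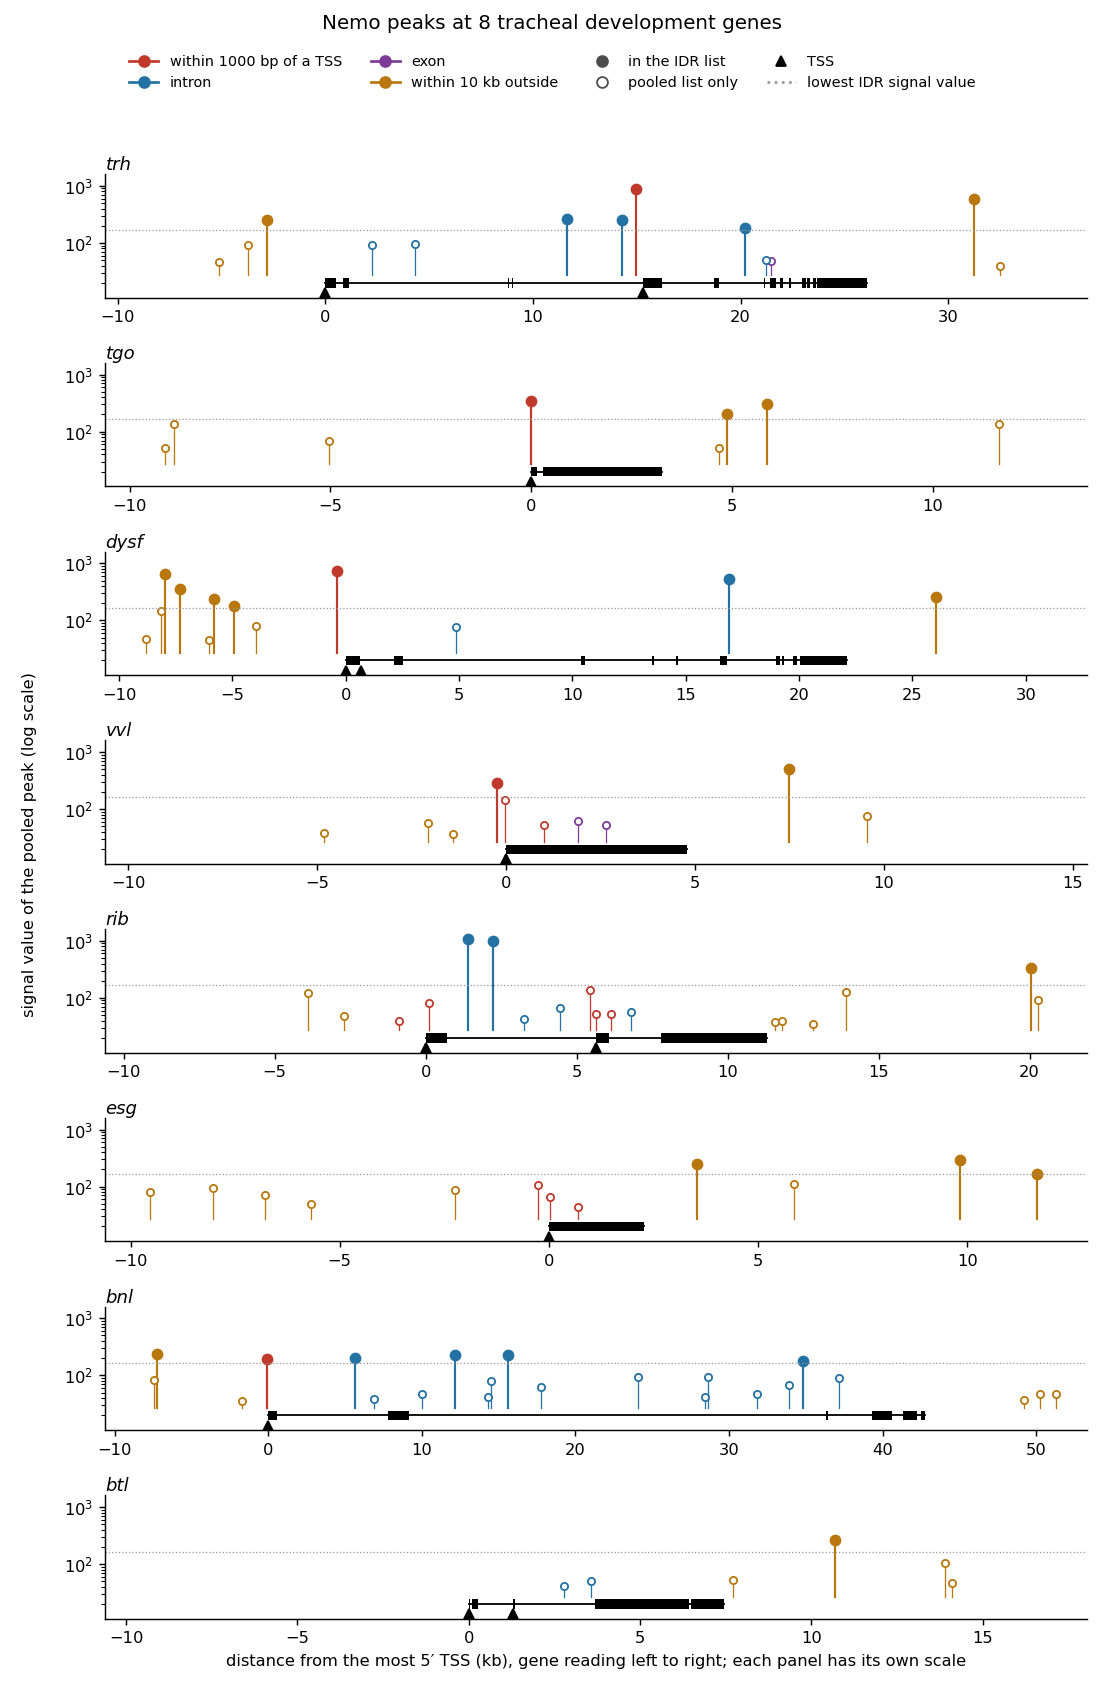
Pooled peaks at each gene by distance from its most 5′ TSS in kb (horizontal) and signal value on a log scale (vertical), with filled circles for IDR peaks, open circles for peaks of the pooled list only, black boxes for exons and triangles for TSSs. The tallest stems are the 2 in the rib intron (1081 and 991) and the one at the internal TSS of trh (886), while btl has a single filled circle, outside the gene.

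Summits within 1000 bp of a TSS were found in the IDR list at 5 of the 8 genes, trh, tgo, dysf, vvl and bnl, against 43.8% of protein-coding genes. In the pooled list 7 of 8 had one, against 61.8%, the exception being btl. The count was not the same in each replicate. Among the 9299 strongest peaks of replicate 2, 7 of 8 genes had such a summit, against 44.7% of protein-coding genes, and among those of replicate 3, 4 of 8, against 42.3%. The genes that moved were rib and esg, present in replicate 2 only, and bnl, present in replicate 2 and among the IDR peaks but not in replicate 3.

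**Figure D2:**
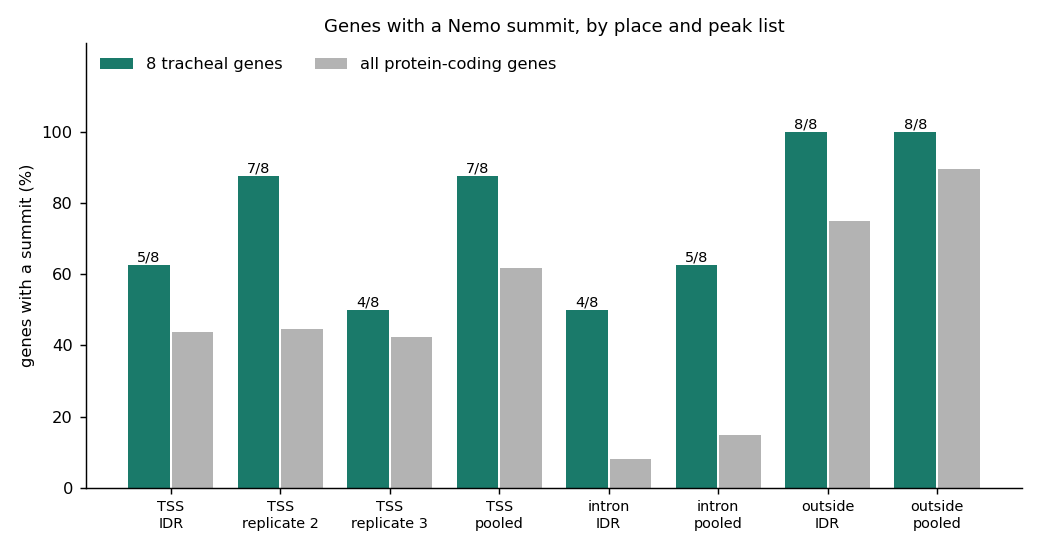
Percent of genes with at least 1 summit, for the 8 tracheal genes (green, with the count above each bar) and all 13968 protein-coding genes (grey), by place and by peak list. The replicates are drawn apart for TSSs only, with 7 of 8 genes in replicate 2 and 4 of 8 in replicate 3, each list cut to its 9299 strongest peaks.

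Windows of 100 bp on each side of a summit were read for sequence features, and the central 151 bp are printed for the 5 promoter summits because these lie closest to where transcription of each regulator begins. Letters are the plus strand of the RefSeq copy of Release 6 (dm6). Capitals mark matches, on either strand, to any of 10 short sequences. These were ACGTG with its longer form TACGTG, known from sites of Trh with Tgo, the POU octamer ATGCAAAT, the Snail family sequence CAGGTG, the ETS sequence CCGGAA, the DNA replication-related element TATCGATA, the GAGA factor sequence GAGAG, the Zelda sequence CAGGTAG, the TCF sequence CTTTGAT and the TATA box TATAAA.
trh promoter, chr3L:377609-377759: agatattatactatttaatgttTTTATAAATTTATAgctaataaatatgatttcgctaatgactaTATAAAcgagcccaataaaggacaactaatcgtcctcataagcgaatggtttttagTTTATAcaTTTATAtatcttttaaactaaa
dysf promoter, chr3R:26099030-26099180: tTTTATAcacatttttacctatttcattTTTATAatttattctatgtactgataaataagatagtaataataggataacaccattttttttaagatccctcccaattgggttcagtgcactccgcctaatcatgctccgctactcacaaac
tgo promoter, chr3R:9019943-9020093: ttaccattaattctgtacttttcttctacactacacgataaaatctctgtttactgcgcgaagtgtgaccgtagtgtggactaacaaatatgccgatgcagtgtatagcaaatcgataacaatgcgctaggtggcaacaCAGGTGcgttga
vvl promoter, chr3L:6789848-6789998: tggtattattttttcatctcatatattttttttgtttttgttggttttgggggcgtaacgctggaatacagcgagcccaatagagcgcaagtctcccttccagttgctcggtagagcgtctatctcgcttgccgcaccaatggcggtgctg
bnl promoter, chr3R:19836830-19836980: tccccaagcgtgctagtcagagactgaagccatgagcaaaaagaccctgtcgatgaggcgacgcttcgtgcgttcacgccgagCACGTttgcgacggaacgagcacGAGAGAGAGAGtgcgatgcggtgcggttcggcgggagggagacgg

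These promoter windows differed widely in base composition. The GC content was 23.4% at trh, 31.3% at dysf, 41.3% at tgo, 50.2% at vvl and 61.2% at bnl, against a median of 33.3% (quartiles 29.4 and 38.8) over all IDR summits. So the windows of tgo, vvl and bnl lay above the upper quartile and that of trh below the lower one. The trh window held 7 matches to TATAAA, which overlap one another in part, and the bnl window held runs of GAGAG and 1 ACGTG, while the vvl window held none of the 10 sequences.

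The promoter summit of trh was the strongest of the 5. The gene (FBgn0262139, chromosome 3L, 366524 to 392633, minus strand) has 7 transcripts and 2 TSSs, of which the internal one at 377316 starts 5 transcripts and the distal one at 392633 starts 2. The summit at 377684 lay 368 bp upstream of the internal TSS and inside intron 4 of 11 of the longest transcript. Its signal value of 886 gave IDR rank 1017, and it ranked 916 in replicate 2 and 1076 in replicate 3. It was stronger than 84.4% of the strongest promoter summits of the 6122 protein-coding genes that had one in the IDR list. No pooled summit lay within 1000 bp of the distal TSS.

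The promoter summit of dysf came next. The gene (FBgn0039411, 3R, 26076592 to 26098711, minus strand) has TSSs at 26098711 and 26098052, and the summit at 26099105 lay 394 bp upstream of the first. The signal value was 739 and the IDR rank 1397, beside 1104 in replicate 2 and 1646 in replicate 3, above 78.6% of genes with a promoter summit. Both replicates thus placed trh above dysf, and dysf above the remaining 3 promoters.

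The partner gene tgo (FBgn0264075, 3R, 9016773 to 9020022, minus strand) had a summit at 9020018, 4 bp downstream of its single TSS and in a noncoding part of the first exon. The signal value of 348 and IDR rank of 4406 lay above those of 39.6% of genes with a promoter summit. Its ranks in the replicates were 2531 and 5864, farther apart than those of trh and dysf.

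The intronless gene vvl (FBgn0086680, 3L, 6790158 to 6794941, plus strand) had its promoter summit at 6789923, 235 bp upstream of the TSS shared by its 5 transcripts. The signal value was 284 (IDR rank 5552), with rank 3191 in replicate 2 and 7941 in replicate 3. A second, weaker pooled peak overlapped it, with a summit 31 bp upstream of the TSS (signal value 146, rank 10287). Pooled summits also lay in the coding sequence of vvl, the strongest at 6792067 with a signal value of 62.1.

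The FGF ligand gene bnl (FBgn0014135, 3R, 19794073 to 19836817, minus strand) had the weakest of the 5 promoter summits, at 19836905, 88 bp upstream of the TSS of its 3 transcripts. The signal value was 191 and the IDR rank 8262, above 6.37% of genes with a promoter summit. It ranked 5553 in replicate 2 and 11053 in replicate 3, so it belonged to the 9299 strongest peaks in replicate 2 only.

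Below the IDR threshold, rib and esg had promoter summits and btl had almost none. Around the rib TSSs the pooled list held 5 summits, the strongest 200 bp upstream of the internal TSS (signal value 139, rank 10645). The best-ranked rib promoter summit stood at rank 5074 in replicate 2 and 11794 in replicate 3, at different places. At esg (FBgn0287768, 2L, 15333866 to 15336138, plus strand, no intron) the strongest of 3 pooled summits lay 265 bp upstream (signal value 107, rank 12942), and the best ranks were 7825 and 16218. For btl (FBgn0285896, 3L, 14075772 to 14083229, plus strand) replicate 2 had 1 summit within 1000 bp of a TSS, at rank 23908 with a −log10 q-value of 0.591, and replicate 3 had none.

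Intronic summits of the IDR list were found at trh, dysf, rib and bnl, 4 of the 8 genes, against 8.11% of protein-coding genes. Intron length bears on this count: among the 1384 protein-coding genes with at least 10 kb of intron 53.4% had an intronic IDR summit, and trh, dysf and bnl, the 3 tracheal genes of that length, all did. In the pooled list the counts were 5 of 8 against 14.8%, and 3 of 3 against 80.4%. Per 100 kb of intron, with summits near a TSS included, the 8 genes had 12.6 IDR summits (11 in 87 kb), against 6.5 over all protein-coding genes and 5.44 over those with long introns. The values per gene ran from 30.1 at rib and 19.4 at trh to 10.5 at bnl, 5.59 at dysf and 0 in the 3.49 kb of btl introns, so the genes did not share 1 density. The genes vvl and esg have no intron and tgo has 142 bp of it.

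The strongest summits of any of the 8 genes lay in an intron of rib (FBgn0003254, chromosome 2R, 19270078 to 19281396, plus strand). The longest transcript of rib has 1 intron, from 19270787 to 19277861, and both summits lie in its first part, at 19271490 and 19272308. The former was 1412 bp downstream of the first TSS and had a signal value of 1081, IDR rank 727, and ranks of 838 (replicate 2) and 662 (replicate 3). The latter was 2230 bp downstream, with a signal value of 991 and ranks 847, 1201 and 743. Both were far above the strongest rib promoter summit (139) in the pool, and both replicates ranked them above all rib promoter summits. The strongest rib intronic summit outside the IDR list had a signal value of 67.7.

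In dysf, 1 intronic summit passed the IDR threshold, weaker than the promoter summit. It lay at 26081825 in intron 6 of 9, 16.2 kb from the nearest dysf TSS. Its signal value was 521 and its IDR rank 2464. Its ranks in the replicates, 2584 and 2548, were close to each other. The next intronic summit of dysf, at 26093826, had a signal value of 76.3, no overlapping peak in replicate 2, and a noncoding RNA gene (lncRNA:CR44319) whose TSS lay 104 bp away.

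Within trh, 3 intronic summits of the IDR list accompanied the promoter summit. The summit at 378329, in intron 4, lay 1013 bp upstream of the internal TSS, just past the 1000 bp limit, with a signal value of 252 and ranks 7145 and 6005 in the replicates. In the same intron, the summit at 381013 had a signal value of 258 and ranks 6328 and 6289. In intron 5 a weaker one at 372438 had 185, with ranks 8957 and 9146. The large intron 2, between the distal TSS and the internal one, held only pooled peaks outside the IDR list, the stronger with a signal value of 94.3.

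The bnl introns held 4 IDR summits of similar signal value, close to that of its promoter (191). Intron 2 of 4, from 19800502 to 19827653, held those at 19824640 (signal value 230), 19821190 (225) and 19802003 (179), and intron 1 held the one at 19831174 (199). Their ranks ran from 8265 to 11099 in replicate 2 and from 6101 to 8628 in replicate 3. The summit at 19802003 lay 687 bp from the TSS of a transfer RNA gene inside the bnl intron (tRNA:Thr-AGT-1-7). A further 11 intronic summits of bnl were in the pooled list only, the strongest with a signal value of 95, which gave bnl the largest number of intronic summits of the 8 genes. At btl the 2 pooled intronic summits were weak, the stronger with a signal value of 51.

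Outside the genes, within 10 kb, all 8 had at least 1 IDR summit, as did 75% of protein-coding genes, and all 8 had a pooled summit, against 89.6%. Such a summit may belong to a neighbour. Of the 16, 6 lay within 1000 bp of the TSS of another gene: Cdc5 beside trh (signal value 597), Kcmf1 (309) and Sf3b5 (206) beside tgo, Fkbp12 beside rib (327), and Cipc beside dysf with 2 summits (648 and 356). At tgo and rib no other outside IDR summit was found. Without summits within 1000 bp of another TSS, 6 of 8 genes were left, against 26.5% of protein-coding genes. Of these, only vvl and esg had outside summits nearest to their own TSS. At trh, dysf, bnl and btl the nearest TSS was still that of another gene.

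Among the outside summits away from any TSS, that of vvl was the strongest. It lay at 6797655, 7497 bp from the TSS and 3′ of the gene, with a signal value of 509 and IDR rank 2566, and it ranked 3234 in replicate 2 and 2389 in replicate 3. It was stronger than the vvl promoter summit in the pool and in replicate 3, and the ranks of both were close in replicate 2 (3234 and 3191). Its window had the lowest GC content of all 31, 18.4%.

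The esg gene had all 3 of its IDR summits in the region 3′ of its single exon. They lay 3541, 9819 and 11669 bp from the TSS, with signal values of 244, 298 and 169, and for each of them the nearest TSS of any gene was that of esg. The first 2 held similar ranks in the replicates (6944 and 6876, then 5948 and 5008), while the third, at rank 9162 just inside the IDR list, had ranks of 12433 and 8354. The strongest esg summit outside the IDR list, at 15339731, lay on the same side with a signal value of 113.

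For btl the only IDR summit was at 14086458, 3′ of the gene and 9393 bp from its nearest TSS. Its signal value was 268, and it ranked 7066 in replicate 2 and 5487 in replicate 3. The nearest TSS was that of CG8100, 2843 bp away, so its assignment to btl rests on distance to the gene alone. The ligand gene bnl had 1 outside IDR summit, 7218 bp upstream of the TSS (signal value 233, ranks 7835 and 6854), nearest to the TSS of CG31459.

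Upstream of trh, an IDR summit at 395427 lay 2794 bp from the distal TSS and 1833 bp from that of a noncoding RNA gene (lncRNA:CR43969). Its signal value was 252, and its replicate ranks were 7768 and 6011. Upstream of dysf, 4 IDR summits formed a row between its promoter and that of Cipc. The 2 farther from Cipc, 4933 and 5824 bp upstream of dysf, had signal values of 180 and 241. On the other side of dysf, the summit at 26072672 (signal value 253) had rank 6094 in replicate 3 and no overlapping peak in replicate 2. This summit lay 25.4 kb from the nearest dysf TSS and 1094 bp from that of lncRNA:CR44950. It was the only one of the 31 without a peak in both replicates, while over the whole IDR list 97.2% had one in both.

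Counted over each gene with 10 kb on both sides, the IDR list held 16.6 summits per 100 kb at dysf, 13.5 at esg, 13 at trh, 12.9 at tgo, 9.58 at rib, 9.56 at bnl, 8.07 at vvl and 3.64 at btl. The median over protein-coding genes was 9.32, with quartiles of 4.3 and 16.1, so dysf lay above and btl below these quartiles. With pooled peaks the order differed: rib (57.5) and esg (53.9) had the highest densities, above those of 94.2% and 91.8% of protein-coding genes, and btl (21.9) again the lowest. Many of the added pooled peaks are weak, and some overlap a stronger neighbour, as at vvl, rib and bnl.

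The sequences searched were counted in the 31 windows and in all 9299 IDR windows. ACGTG was in 4 of the 31 (12.9%), against 12.4% of all, and TATAAA in 14 (45.2%), against 39%. GAGAG was in 4, against 18.8%. TACGTG was in 1 (3.23%), as were the octamer, the Snail family sequence and the TCF sequence, against 3.45%, 2.52%, 4.6% and 3.53% of all. The ETS, replication-related and Zelda sequences were in none of the 31, against 3.15%, 5.9% and 0.613%. In narrower windows of 50 bp on each side, ACGTG was in 3 of the 31 (9.68%), against 5.9% of all, and TACGTG in 1, against 1.66%. The shares for both thus lay close to those of the whole list in the wider windows and above them in the narrower ones, on counts of 1 to 4 windows. TACGTG contains ACGTG, so a window with the former counts for both. The 31 windows include those at TSSs of neighbours. An ACGTG window beside rib had its summit 32 bp from the TSS of Fkbp12. The window with the octamer, beside tgo, had its summit 75 bp from the TSS of Kcmf1.

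The following windows away from promoters are shown for their place and their letters: the trh intron with the only TACGTG, the nearest summit 3′ of esg, which holds the palindrome CACGTG and so a match on each strand, and the strongest summit that lay outside the genes and away from any TSS, at vvl. In the trh window TACGTG starts 13 bp to the right of the summit on the plus strand.
trh intron 4, chr3L:378254-378404: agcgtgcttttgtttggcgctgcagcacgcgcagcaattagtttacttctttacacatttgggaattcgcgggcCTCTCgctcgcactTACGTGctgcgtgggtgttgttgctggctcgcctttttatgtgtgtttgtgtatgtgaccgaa
esg 3′ region, chr2L:15337332-15337482: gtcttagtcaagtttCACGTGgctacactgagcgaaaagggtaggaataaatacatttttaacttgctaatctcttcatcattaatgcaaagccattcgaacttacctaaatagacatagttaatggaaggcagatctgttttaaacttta
vvl 3′ region, chr3L:6797580-6797730: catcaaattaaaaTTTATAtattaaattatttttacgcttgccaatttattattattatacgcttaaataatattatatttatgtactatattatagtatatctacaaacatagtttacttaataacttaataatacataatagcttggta

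The replicates ordered the promoter summits differently from the others. All 5 IDR summits within 1000 bp of a TSS of these genes ranked higher in replicate 2, whereas 9 of the 10 intronic summits ranked higher in replicate 3. Split by distance to a TSS of any gene, 10 of 12 summits within 1000 bp ranked higher in replicate 2, against 50.4% of all such IDR summits, and 1 of 18 farther away, against 31.6%. With the full replicate lists, the best-ranked promoter summit stood higher in replicate 2 at all 7 genes that had one in both, against 53.9% of protein-coding genes. The rank in replicate 3 was 2.49 times that in replicate 2 at vvl, 2.32 times at tgo, 1.99 times at bnl, 1.49 times at dysf and 1.17 times at trh. In the rib intron the ratios were 0.79 and 0.619.

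**Figure D3:**
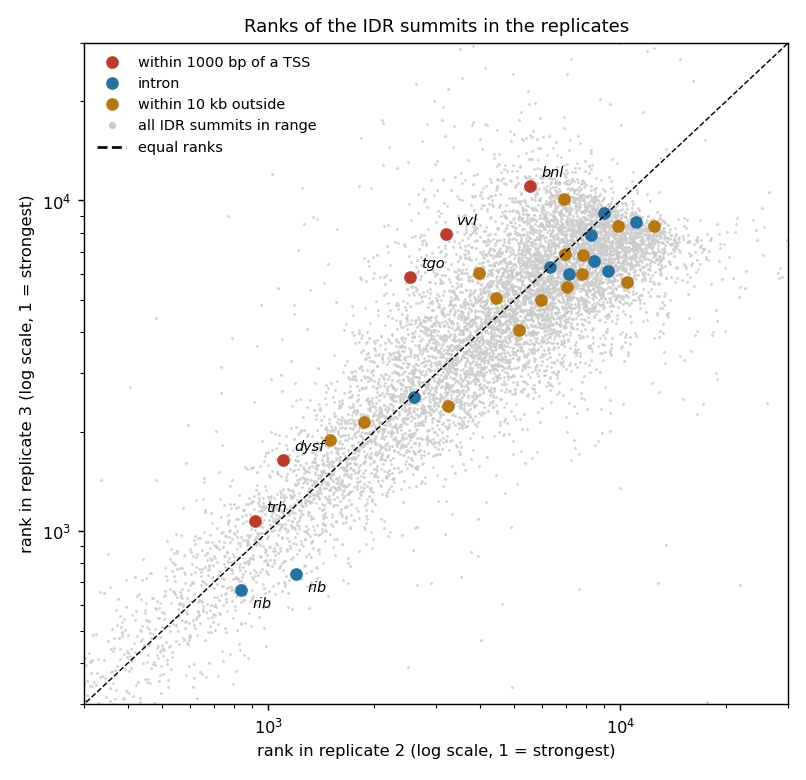
Rank of each IDR summit in replicate 2 (horizontal) and replicate 3 (vertical), both on log scales with 1 the strongest, for the 30 summits of the 8 genes found in both (coloured by place) and for other IDR summits (grey). The 5 promoter summits lie above the line of equal ranks, farthest at vvl (3191 and 7941), and both rib intron summits lie below it.

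Base composition moved with this order, as did distance to a TSS. The 3 promoters with the largest rank ratios, vvl, tgo and bnl, were those with the highest GC content. Among the summits of the 8 genes 5 of 6 with a GC content of at least 40%, a limit set after the values were seen, ranked higher in replicate 2, against 60.8% of all IDR summits of that kind. Below 40% it was 6 of 24, against 38.5%. The 5 summits of at least 40% that ranked higher in replicate 2 all lay within 1000 bp of a TSS of some gene. The exception, at trh, lay 1013 bp from one. Of the 6 below 40%, all but the trh summit at 372438 also lay within 1000 bp of a TSS. The dysf summit at 26106010 and the bnl summit at 19802003, below 40% and within 1000 bp of a TSS, ranked higher in replicate 3. Over all 9038 IDR summits present in both replicates, the GC content and the log2 ratio of the ranks had a Spearman's rho of 0.18 and a Pearson's r of 0.23, as a description across sites that share 2 libraries. Within 1000 bp of a TSS rho was 0.22 and r 0.24, and farther away rho was 0.03 and r 0.16. The parts of base composition and of distance to a TSS in the order of the replicates at these genes were not tested. Single summits departed from the order by GC content in both directions. Among the 6 below 40% GC that ranked higher in replicate 2 were the Kcmf1 summit beside tgo (38.8% GC, log2 ratio 0.61), the dysf promoter (31.3%, 0.58) and the trh promoter (23.4%, 0.23). Above 40%, the trh summit at 378329 (51.2%) ranked higher in replicate 3, with a log2 ratio of −0.25.

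**Figure D4:**
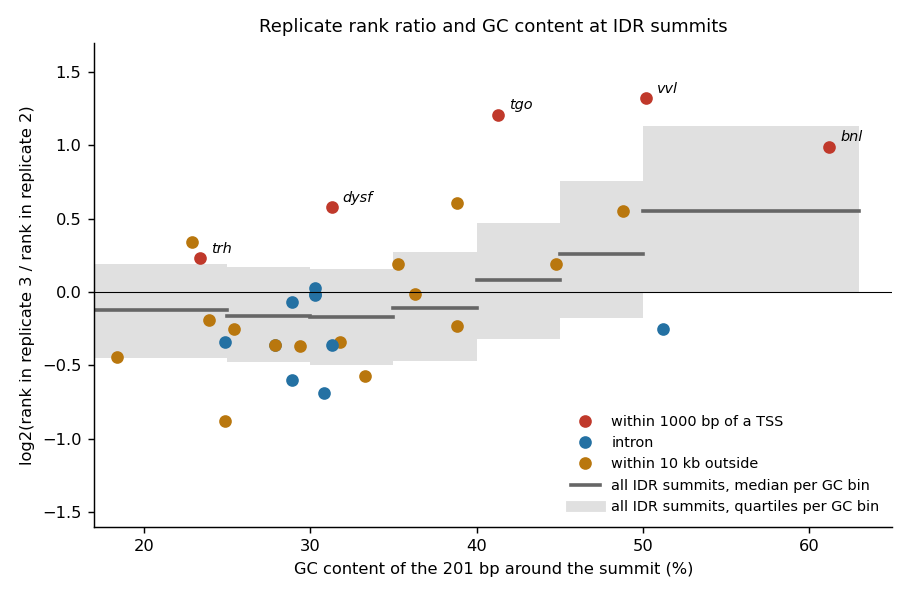
GC content in percent around each summit (100 bp on each side) (horizontal) and log2 of the rank in replicate 3 over the rank in replicate 2 (vertical) for the 30 summits found in both replicates, with the median and quartiles of all IDR summits per bin of GC content. Bin medians run from −0.17 at 30 to 35% to 0.55 at 50% and more. The vvl, tgo, dysf and trh promoters (1.32, 1.21, 0.58 and 0.23) lie above the upper quartile of their bins. The bnl promoter (0.99) does not.

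Genes that work with these regulators were counted from lists named by function, which share members with the 8 genes where a family is involved. Of 11 genes of the FGF signalling cascade 10 had an IDR summit within 1000 bp of a TSS, against 43.8% of protein-coding genes. The exception was drk, which encodes an adaptor protein. In the pooled list all 11 had one, against 61.8%. The strongest were at stumps, the adaptor that couples FGF receptors to the cascade (signal value 1078), and Ras85D, a Ras GTPase (722). Among the 5 FGF ligand and receptor genes 3 had one in the IDR list and 4 in the pooled list. In the IDR list htl, the FGF receptor of the mesoderm (953), was far stronger than bnl (191), and btl and ths had none. So the 2 FGF receptor genes differed. The htl promoter summit was strong in both replicates (ranks 871 and 929). Near the btl TSSs there was no IDR summit, 1 weak summit in replicate 2 (rank 23908) and none in replicate 3.

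In the bHLH-PAS family 7 of 11 genes had an IDR promoter summit. The gene gce, a juvenile hormone receptor gene, was ahead of trh at 2622. The 4 without one included sim, the midline regulator, and ss. Branch patterning genes had one in 10 of 14 cases, led by grn, a GATA factor gene (539), and apt (449), and kni and knrl were among the 4 without. Genes of fusion and terminal cells had one in 4 of 5 cases, led by pyd, a junction protein gene (685), and dnd (600), with form3 without. Tube wall and lumen genes had one in 4 of 12 cases, led by Atpalpha, the sodium pump subunit (919), and mmy (596), while serp and verm, which encode chitin deacetylases of the lumen, were among the 8 without. In the Snail family only scrt (339) had one in the IDR list, and sna and esg were among the 3 that did not. In the POU family vvl and pdm3 (221) had one, and nub and pdm2 were among the 3 that did not. These IDR counts are small, against 43.8% over all protein-coding genes, and differences between lists were not tested. The pooled list, with its weaker peaks, gave 10 of 11 bHLH-PAS genes, 14 of 14 branch patterning genes and 4 of 5 fusion and terminal cell genes. It also gave 10 of 12 tube wall and lumen genes, 4 of 4 Snail family genes and 5 of 5 POU family genes, against 61.8%.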

How the data were processed

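Peaks of replicate 2, replicate 3 and their pool (30000 each) and an IDR list (9299) were available in narrowPeak format, on dm6 per the labels. Per the deposited text notes, the first 3 lists derive from the alignments and a file common to them, and the IDR list from these 3. The IDR threshold, the aligner and the program that called peaks are not given in the sources used here. The signal value (column 7), in units of the authors' peak caller, and the −log10 q-value (column 9) were used as the authors deposited them. Depth per sample is unknown.

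From these, summits (start plus the offset in column 10, printed 1-based) were assigned to genes of Ensembl release 115 (BDGP 6.54) without transposable elements, using Python 3.11.15. Assignment was tested on 1850 summits placed at known positions, all recovered. Replicate peaks were matched by an overlap of at least 1 bp, taking the nearest summit. Strongest peaks of a replicate means its first 9299 by signal value. Background counts used the same rules over 13968 protein-coding genes. Sequence was read from the RefSeq copy of Release 6, in which no peak passed a chromosome end.

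All 8 genes, all their IDR summits and the strongest other pooled summit per place were named by rule. For the functional lists these were the 2 strongest genes and up to 2 without an IDR promoter summit. The symbols hdc, dp and mega were not matched and were dropped. Genes and lists were chosen with earlier results of these data known. Comparison of GC content with ranks was added after the data were seen.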

Additional observations from a re-analysis of the deposited data

How the results depend on the processing

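The counts depended on where the peak list was ended. With the stronger 4649 of the IDR peaks, 3 of 8 genes kept a TSS summit (against 27.5% of protein-coding genes), 2 an intronic one (5.11%) and 3 an outside one (57.4%), with 1.25 summits per gene in place of 3.88. The pooled list gave 12.6 per gene. Leaving out a replicate gave 4 to 7 genes with a TSS summit, 4 with an intronic one, 8 with an outside one and 3.62 to 3.88 summits per gene. The RefSeq annotation changed none of these counts. TSS distances of 500 and 2000 bp gave 5 and 6 genes, the added one being rib, and outside distances of 5 and 20 kb gave 6 and 8. Summits in both replicates were 30 of 31 by overlap or by summits within 100 bp, and 25 by a reciprocal overlap of 50%. In windows of 50 bp on each side the 31 summits held 17 pairs of window and sequence in place of 26, as the windows are shorter. No paired analysis was possible because there is 1 group. Without counts of reads no interval could be given for a rank or signal value.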
